A study of Mus musculus with 18 samples.

Results

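The genes described here are 38 interferon-stimulated antiviral genes, measured in naive and memory CD8 T cells before and after culture with interleukin-4 (IL-4), interleukin-7 (IL-7), both or neither. They were chosen by symbol: 8 signalling and transcription factors, 5 sensors of nucleic acid and 25 effectors. On the array, 35 of the 38 had a probe set of their own, out of 18193 genes measured, and all 35 passed the filter on low values. The other 3 members, all effectors, were not tested: the probe sets for Isg15 and Trex1 also carry the symbol of a second gene, and no probe set carried the symbol Ifi44.

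All 18 arrays carried RNA of T cells sorted by flow cytometry from the spleen of F5 mice, which bear a transgenic T cell receptor and are labelled C57Bl/6. Naive cells were taken from unprimed F5 mice, and memory cells, labelled TIM, from F5 mice given 2 immunisations with NP68 peptide and taken on day 45. Both kinds of cell therefore carry the same transgenic receptor, and the memory cells come from peptide immunisation, not from infection. Directly after sorting (ex vivo) there were 2 naive and 4 memory arrays. After 20 h of culture there were 2 arrays for each of 6 groups: naive cells with IL-7, naive cells with both cytokines, and memory cells with both, with IL-4 alone, with IL-7 alone, or in medium with no added cytokine. IL-7 was used at 10 ng/mL and IL-4 at 20 ng/mL. Ages and the number of pooled mice are not given in the labels, and only the ex vivo arrays are called biological replicates. The titles gave the groups, because the source and cell type labels of the naive samples also contain the word memory. The spread behind each p-value is that between these arrays, which may be partly technical.

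Type I interferons bind the receptor chains Ifnar1 and Ifnar2, and the kinases Jak1 and Tyk2 then activate signalling through STAT2. With Irf9 it forms part of the complex ISGF3, which binds the interferon-stimulated response element (ISRE) in the promoters of many antiviral genes. IL-4 signals mainly through STAT6 and IL-7 mainly through STAT5. In CD8 T cells, interferon-stimulated genes are known both as a defence against infection of the cell itself and as a readout of interferon in its surroundings.

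The ISRE, searched as GAAA, any 2 bases and GAAA again, on both strands, is the sequence through which ISGF3 acts on many of these genes. RefSeq promoters (GRCm38.p6, 250 bases before to 50 after a gene's start) were at hand for 29 of the 38 members; those of Rtp4, Zbp1, Mx1, Oas2, Usp18, Dhx58, Parp9, Parp14 and Ifi27l2a were not. Of the 29, 11 held a match (37.9%), against 1079 of 27025 genes (3.99%). TTCNNNGAA, the spacing that STAT5 dimers bind, was in 8 of 29 member promoters (27.6%) and in 9.55% of all genes. The spacing that STAT6 favours, TTC and GAA with 4 bases of any kind between them, was in 6 of 29 (20.7%) and in 8.01% of all genes. Matches can overlap: in Oas1a, for example, ISRE matches begin at -20 and -14 from the start and a STAT6-spacing match at -27. A match is a description of these letters and not a measured binding site.

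The 250 bases before the start of 4 members are shown, 5′ to 3′ on the gene's own strand, with ISRE matches in capitals. Ifit1 and Stat2 are the members called with IL-4 whose promoters hold a match, Ifit3 is a neighbour of Ifit1 in the same family that was not called, and Rsad2 has a match and was lower after culture. They lie at chr19:34640639-34640888 on the plus strand for Ifit1, chr19:34583279-34583528 on the plus strand for Ifit3, chr10:128270248-128270497 on the plus strand for Stat2 and chr12:26456453-26456702 on the minus strand for Rsad2.
Ifit1: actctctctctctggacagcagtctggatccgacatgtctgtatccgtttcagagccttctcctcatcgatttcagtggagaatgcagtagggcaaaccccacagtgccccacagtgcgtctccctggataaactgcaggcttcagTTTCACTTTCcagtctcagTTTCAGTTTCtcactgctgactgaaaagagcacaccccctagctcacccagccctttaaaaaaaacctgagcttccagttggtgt
Ifit3: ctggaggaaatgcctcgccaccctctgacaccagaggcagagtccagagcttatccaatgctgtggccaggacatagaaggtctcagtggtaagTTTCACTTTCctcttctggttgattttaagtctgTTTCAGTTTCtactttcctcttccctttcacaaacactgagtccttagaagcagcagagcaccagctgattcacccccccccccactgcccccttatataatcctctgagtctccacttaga
Stat2: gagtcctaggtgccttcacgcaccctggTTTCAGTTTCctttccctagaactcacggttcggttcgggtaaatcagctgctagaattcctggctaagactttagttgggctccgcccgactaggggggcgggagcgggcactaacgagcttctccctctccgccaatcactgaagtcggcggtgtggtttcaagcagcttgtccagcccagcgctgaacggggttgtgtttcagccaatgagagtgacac
Rsad2: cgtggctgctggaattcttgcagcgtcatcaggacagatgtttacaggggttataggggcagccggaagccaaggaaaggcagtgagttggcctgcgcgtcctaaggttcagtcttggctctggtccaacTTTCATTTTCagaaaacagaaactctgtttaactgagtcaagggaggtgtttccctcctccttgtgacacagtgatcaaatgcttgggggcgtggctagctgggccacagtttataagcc
In Ifit1 and Ifit3 the 2 matches are the same letters, TTTCACTTTC and then TTTCAGTTTC, beginning at -104 and -85 in Ifit1 and at -156 and -122 in Ifit3. The match of Stat2 is TTTCAGTTTC at -222, and that of Rsad2 is TTTCATTTTC at -120. All 6 matches run in the same orientation along the gene.

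Levels are RMA values on the log2 scale, where a difference of 1 is a doubling, and 4.06 was the filter value. Cd8a, Cd8b1, Cd3e, Cd3d, Cd3g and Thy1 read between 9.36 and 13.3 on all 18 arrays, and so above the filter value, which is a percentile of the table and not a measured background. Of the 6 B cell and 8 myeloid markers listed, Ebf1, Cr2 and Itgam stayed under it on every array. Cd79b (7.25 to 8.79), Pax5, Csf1r, Lyz2, Cd68 (5.01 to 7.04), Fcgr3 and Cd14 were above it on all 18 arrays, and the rest on some. The plasmacytoid dendritic cell gene Siglech, whose cells are strong interferon producers, ranged from 4.93 to 5.64. The array labelled memory in medium, replicate 2, stood apart: it correlated best with ex vivo memory replicate 2 (r = 0.995) and more weakly (r = 0.956) with its own replicate. Its Gapdh 3′ minus 5′ difference was 2.35, below the 2.67 to 3.36 of the other cultured arrays and inside the 2.07 to 2.69 of the ex vivo arrays. The other cultured memory arrays also correlated best with an array outside their group, but in each case a cultured one. Replicates of the memory groups given cytokines correlated at r = 0.990 to 0.995. Counts of called members that rest on the array that stood apart are given with and without it, as are several single changes. In RNA from sorted bulk samples, fewer cells expressing a gene and less RNA per cell cannot be told apart.

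Among the cultured arrays of each cell type, the antiviral genes stood higher with IL-4 than without it. The median level over the 35 members was 9.48 and 8.94 on the memory arrays with IL-4 and IL-7 and 9.64 and 9.23 with IL-4 alone. It was 7.81 and 7.93 with IL-7 alone and 8.04 and 8.18 in medium. In naive cells it was 8.53 and 8.99 with IL-4 and IL-7 against 7.52 and 8.07 with IL-7. Ex vivo it was 8.37 and 9.26 in naive cells and between 8.27 and 8.48 in memory cells. The median of all genes tested moved only between 6.95 and 7.45 over the 18 arrays.

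**Figure D1:**
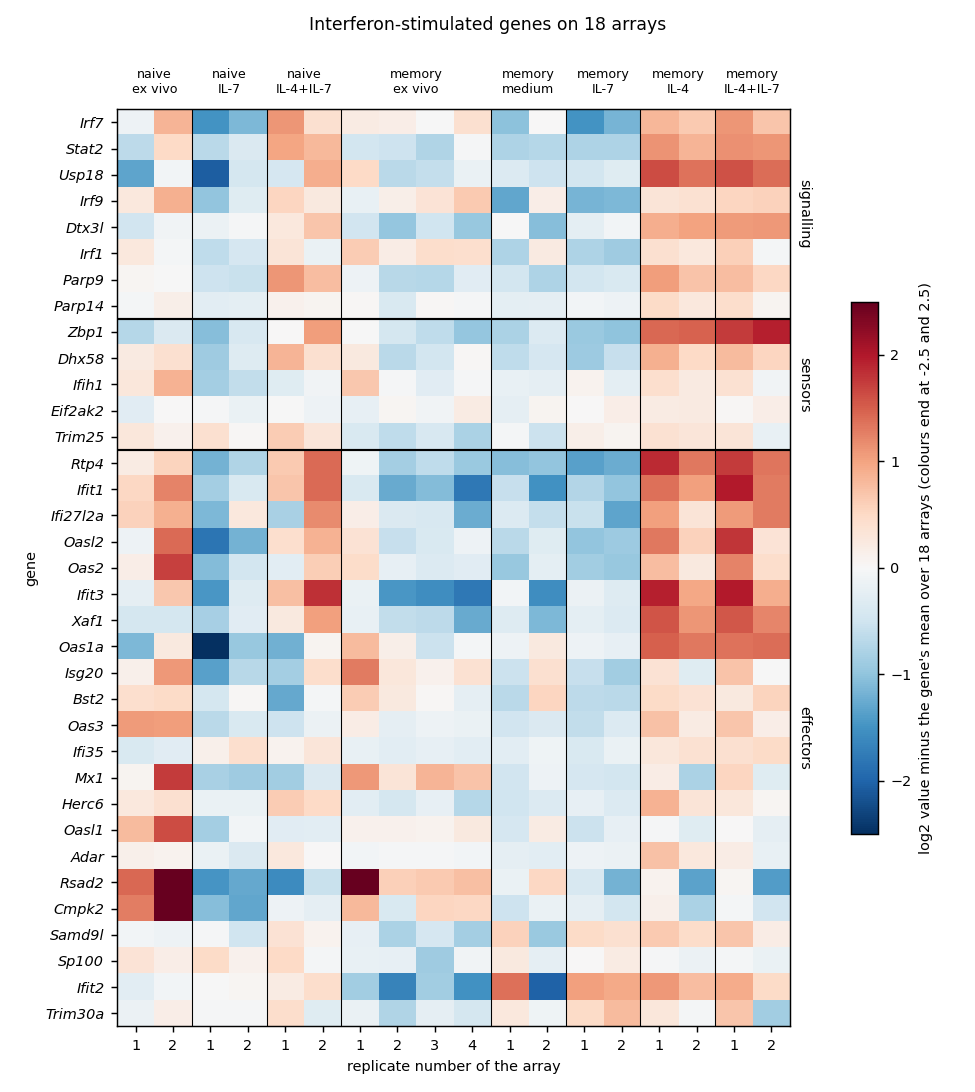
Each row is 1 of the 35 measured members, ordered by role (signalling, sensors, effectors), and each column is 1 of the 18 arrays, ordered by group. Colour gives the log2 level minus that gene's mean over all arrays; 14 members are higher in every cultured column with IL-4 than in any cultured column without it, and Rsad2 is highest ex vivo.

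The first comparison asked what IL-4 added to memory cells that already had IL-7. Of the 35 members, 11 were higher with IL-4 and 0 were lower (31.4% of members, against 1.81% of all 13769 genes tested, 1.21% higher and 0.596% lower). The called members were 5 of 8 signalling factors, 2 of 5 sensors and 4 of 22 effectors. Their changes ran from 0.70 for Ifi35 to 2.84 for Rtp4 on the log2 scale, and 22 of the 35 had an unadjusted p under 0.05. The median change over the members was 1.07, against 0.083 over all genes tested. Both IL-4 arrays lay above both IL-7 arrays for 24 members, as for 34.3% of all genes, and below them for 2, Ifit2 and Sp100, as for 21.5%. The count fell to 3 (Stat2, Zbp1 and Rtp4) without memory IL-7 replicate 1, to 4 with Irf7 added without replicate 2, and to 5 and 6 without memory IL-4 and IL-7 replicates 1 and 2. It was 15 without the medium array that stood apart.

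Without IL-7, IL-4 gave a similar count in memory cells. Against medium, 10 of the 35 members were higher and 0 lower (1.94% of all genes called, 1.26% higher and 0.675% lower), with a median change of 0.92 against 0.060 over all genes. They were 3 signalling factors, 2 sensors and 5 effectors, and 21 members had an unadjusted p under 0.05. Of them, 8 were also called with IL-7: Stat2, Parp9, Dtx3l, Dhx58, Zbp1, Ifit1, Rtp4 and Xaf1. Both IL-4 arrays lay above both medium arrays for 25 members (20.6% of all genes) and below for 0 (13.7%). Without the medium array that stood apart, 8 members were called, all higher: Dtx3l, Dhx58, Ifit1 and Adar were lost and Irf9 and Irf7 were gained. Without medium replicate 1, 14 were called, but so were 2364 genes in all (17.2%). Without memory IL-4 replicates 1 and 2 the counts were 2 (Parp9 and Rtp4, 0.530% of all genes) and 6 (0.625%).

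Among naive cells given IL-7, IL-4 raised 4 of the 35 members, Parp9, Rtp4, Irf7 and Stat2, and lowered 0 (1.26% of all genes called, 0.879% higher and 0.378% lower). These are 3 signalling factors and 1 effector, and all 4 were also called in memory cells with IL-7. The median change over members was 0.62 against -0.0043 over all genes, and 16 members had an unadjusted p under 0.05. Both IL-4 arrays lay above both IL-7 arrays for 22 members (19.3% of all genes) and below for 0 (16.9%). The count was 1 (Parp9) without naive IL-7 replicate 1 and 7 without the medium array that stood apart, which enters here only through the shared estimate of the spread.

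Over all 12 cultured arrays, 14 members were higher on every array with IL-4 than on any array without it (2.06% of all genes), and 0 were lower on every one (0.574%). These were Stat2, Irf7, Irf9, Parp9, Parp14, Dtx3l, Dhx58, Zbp1, Ifit1, Ifit3, Rtp4, Oasl2, Xaf1 and Herc6. Among the 8 cultured memory arrays alone, the number was 20 (9.65% of all genes).

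**Figure D2:**
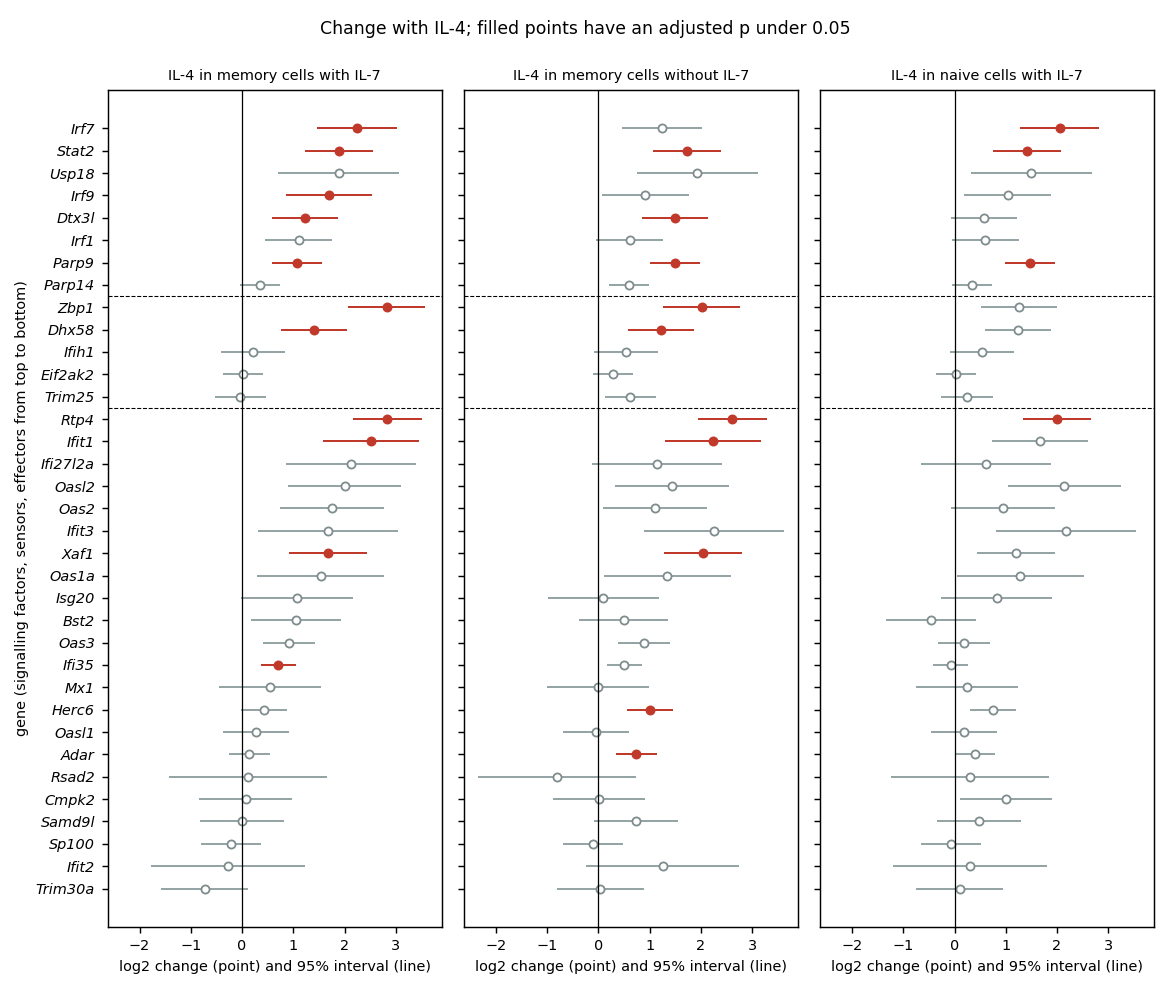
Log2 change with IL-4 for each of the 35 members in 3 comparisons: memory cells with IL-7, memory cells without IL-7 and naive cells with IL-7. Bars are 95% intervals of the fit, and filled points have an adjusted p under 0.05; 11, 10 and 4 points are filled, all of them above 0.

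Among the signalling factors, Stat2 and Parp9 were called in all 3 comparisons. Stat2, the STAT particular to ISGF3, read 7.38 and 7.35 on the memory arrays with IL-4 and IL-7 and 5.47 and 5.47 with IL-7. It read 7.37 and 7.09 with IL-4 alone and 5.46 and 5.53 in medium. In naive cells it read 7.22 and 7.06 with IL-4 and IL-7 and 5.56 and 5.89 with IL-7. All 6 arrays with IL-4 lay at 7.06 or above, and no cultured array without IL-4 passed 5.89. The changes were 1.90 (SE 0.30, adjusted p = 0.00374) and 1.74 (SE 0.30, adjusted p = 0.00678) in memory cells with and without IL-7 and 1.42 (SE 0.30, adjusted p = 0.0362) in naive cells. A second, dimmer probe set of Stat2 rose by 0.82, 0.90 and 0.92. Ex vivo, Stat2 was 5.58 and 6.74 in naive cells and 5.49 to 6.22 in memory cells, below all 6 arrays with IL-4. The call held without each of the 4 compared arrays in memory cells with IL-7. Without IL-7 it was lost when memory IL-4 replicate 1 was left out (adjusted p = 0.112), and in naive cells it was lost without 3 of the 4 arrays.

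Parp9 and Dtx3l form a complex of an ADP-ribosyltransferase and a ubiquitin ligase that is known to enhance interferon responses. On the memory arrays, Parp9 read 11.17 and 10.91 with IL-4 and IL-7 against 9.92 and 10.01 with IL-7, and 11.44 and 11.10 with IL-4 alone against 9.93 and 9.61 in medium. On the naive arrays it read 11.50 and 11.15 against 9.87 and 9.83. Its values were thus separated by IL-4 in every culture, by 1.07 (SE 0.22, adjusted p = 0.0206), 1.5 (adjusted p = 0.00203) and 1.47 (adjusted p = 0.00252). In naive cells, and in memory cells given IL-4 alone, Parp9 stayed called without each of the 4 compared arrays; with IL-7 in memory cells the call was lost without each of them (highest adjusted p = 0.187). Dtx3l read 11.13 and 11.14 with IL-4 and IL-7, 10.98 and 11.06 with IL-4, 9.82 and 10.00 with IL-7, and 10.05 and 8.99 in medium. Its lowest value is that of the medium array that stood apart. The changes were 1.23 (adjusted p = 0.0472) and 1.5 (adjusted p = 0.0151), and the second was 0.97 without that array. Over all alternatives they ran from 1.06 to 1.32 and from 0.97 to 2.03. The first call was lost without each of the 4 compared arrays. The second held only when medium replicate 1 was the array left out. In naive cells Dtx3l read 10.32 and 10.76 with IL-4 and 9.91 and 10.03 without, a change of 0.57 (adjusted p = 0.626). Its second, dimmer probe set rose by 0.90 and 1.43 in memory cells with and without IL-7 and by 0.90 in naive cells.

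Irf7, the transcription factor that amplifies interferon production, was higher with IL-4 in both cell types where IL-7 was present. It read 10.13 and 9.72 on the memory arrays with IL-4 and IL-7 and 7.52 and 7.86 with IL-7. The naive arrays gave 10.12 and 9.42 with IL-4 and 7.54 and 7.90 without. These are changes of 2.24 (SE 0.35, adjusted p = 0.00375) and 2.05 (SE 0.35, adjusted p = 0.00893), or 4.71-fold and 4.14-fold. Without IL-7 it read 9.84 and 9.68 with IL-4 against 8.0 and 9.03 in medium, a change of 1.25 (adjusted p = 0.104). The higher medium value belongs to the array that stood apart, and without it the change was 1.76 (adjusted p = 0.0238). The call with IL-7 in memory cells was lost without memory IL-7 replicate 1 (adjusted p = 0.0655), and that in naive cells without naive IL-7 replicate 1 or naive IL-4 and IL-7 replicate 1.

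Irf9, the DNA-binding subunit of ISGF3, showed the same dependence on that array. It read 8.91 and 8.94 with IL-4 and IL-7, 8.69 and 8.76 with IL-4, 7.21 and 7.25 with IL-7, and 7.08 and 8.53 in medium. The change with IL-7 was 1.70 (SE 0.39, adjusted p = 0.0372), and the call was lost without each of the 4 arrays in turn. Without IL-7 it was 0.92 (adjusted p = 0.306), or 1.64 (adjusted p = 0.0221) without the medium array that stood apart. In naive cells Irf9 read 8.91 and 8.61 against 7.38 and 8.07, a change of 1.04 (adjusted p = 0.377).

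Usp18, which removes Isg15 from proteins and dampens the interferon receptor, was called in no comparison. It read 10.25 and 10.05, and 10.29 and 10.01, on the memory arrays with IL-4 against 8.13 to 8.34 on those without. The changes were 1.88 (adjusted p = 0.105) and 1.93 (adjusted p = 0.0989) in memory cells and 1.5 (adjusted p = 0.353) in naive cells, whose IL-7 arrays were far apart at 6.58 and 8.22. Irf1, a transcription factor shared by several cytokine pathways, changed by 1.1 with IL-7 in memory cells (adjusted p = 0.0759). Parp14 was the least moved of the 8, at 0.35, 0.60 and 0.34 in the 3 comparisons.

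Among the 5 sensors, Zbp1 and Dhx58 were called. Zbp1, a sensor of Z-form nucleic acid that can trigger cell death, read 10.24 and 10.42 on the memory arrays with IL-4 and IL-7 and 7.55 and 7.47 with IL-7. It read 9.91 and 9.96 with IL-4 alone and 7.70 and 8.14 in medium. All 4 memory arrays with IL-4 lay above every other array of the study. The changes were 2.82 (SE 0.34, adjusted p = 0.000474) and 2.02 (SE 0.34, adjusted p = 0.00582), or 7.06-fold and 4.05-fold. With IL-7 the call held without each of the 4 arrays, and without IL-7 it was lost when either memory IL-4 array was left out (highest adjusted p = 0.0690). In naive cells Zbp1 read 8.49 and 9.54 with IL-4 against 7.42 and 8.09, a change of 1.26 (adjusted p = 0.116). Its second probe set rose by 2.02, 1.74 and 1.84 in the 3 comparisons, and with the mean of both probe sets the naive change of 1.55 was called (adjusted p = 0.00104).

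Dhx58, the regulator of RIG-I-like receptors also called LGP2, read 8.05 and 7.79 with IL-4 and IL-7, 8.14 and 7.75 with IL-4, 6.35 and 6.68 with IL-7, and 6.62 and 6.84 in medium. The changes were 1.40 (SE 0.29, adjusted p = 0.0235) and 1.22 (SE 0.29, adjusted p = 0.0486). In both comparisons the groups were separate, yet the first call was lost without each of its 4 arrays (highest adjusted p = 0.244) and the second without 3 of 4. In naive cells the arrays read 8.10 and 7.66 against 6.37 and 6.92, a change of 1.24 (adjusted p = 0.0571). The RNA sensor Ifih1 (MDA5), the RNA-dependent kinase Eif2ak2 (PKR) and the ubiquitin ligase Trim25 were not called with IL-4 in any of the 3 comparisons. Ifih1 changed by 0.22, 0.53 and 0.54, Eif2ak2 by 0.013, 0.28 and 0.028, and Trim25 by -0.032, 0.62 and 0.24. Without the medium array that stood apart, the Trim25 change of 0.62 was 0.37. The brightest probe set of Eif2ak2 read only 4.42 to 4.93 on all 18 arrays, near the filter value. All intervals of that probe set in the 3 comparisons lay between -0.36 and 0.65. The other Eif2ak2 probe sets were dimmer, with means of 4.46 and 3.60. The brighter of these changed by 0.25, 0.82 and 0.47, and the dimmer by 0.36, 0.155 and 0.18. The change of 0.82, in memory cells without IL-7, lay above those intervals.

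**Figure D3:**
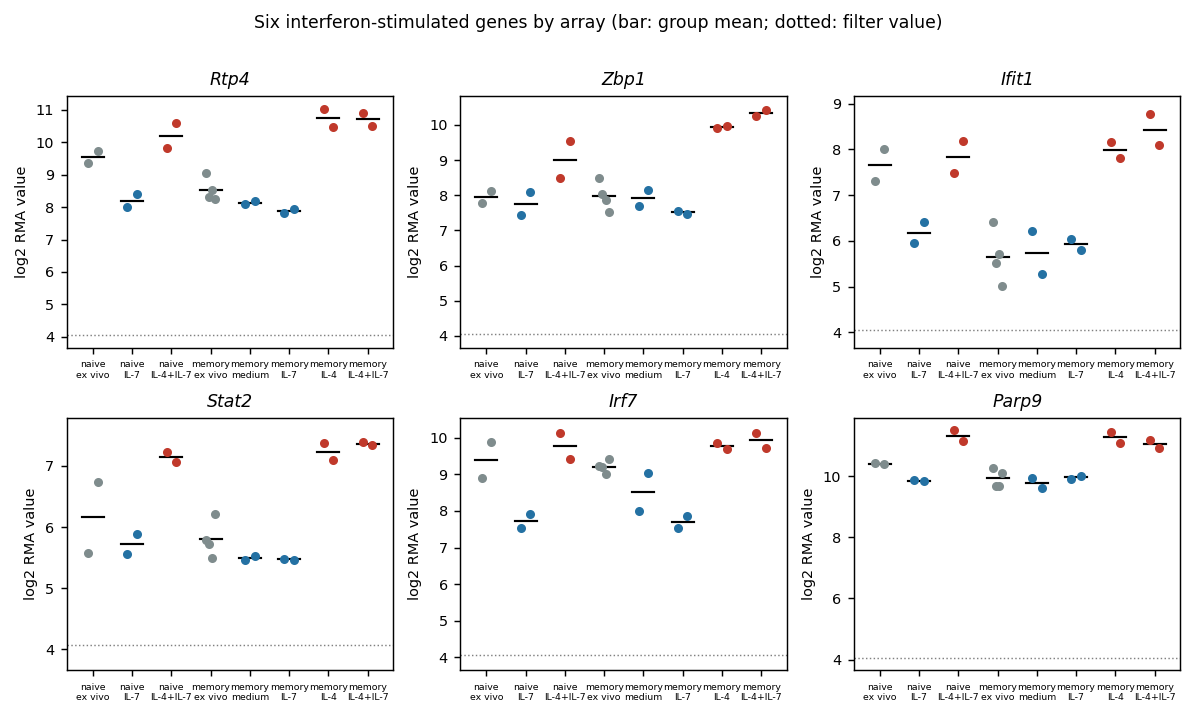
Log2 level of Rtp4, Zbp1, Ifit1, Stat2, Irf7 and Parp9 on each of the 18 arrays. Points are arrays, grouped by condition, and the short lines are group means; for these 6 genes every cultured array with IL-4 lies above every cultured array without it.

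Among the 22 effectors measured, Rtp4 was called in all 3 comparisons. Rtp4, a chaperone-like protein that is strongly induced by interferon, read 10.91 and 10.50 with IL-4 and IL-7 against 7.81 and 7.93 with IL-7. It read 11.03 and 10.48 with IL-4 alone against 8.10 and 8.18 in medium, and 9.81 and 10.59 against 7.99 and 8.41 in naive cells. In each comparison the 2 groups were separate. The changes were 2.84 (SE 0.30, adjusted p = 0.000170), 2.62 (adjusted p = 0.000258) and 2.00 (adjusted p = 0.00311), with the first equal to 7.14-fold. Its second probe set rose by 1.98, 2.21 and 1.40. In memory cells the calls held without each of the compared arrays, and in naive cells the call was lost without naive IL-7 replicate 1 (adjusted p = 0.0735).

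Ifit1, which binds viral RNA lacking the host's cap methylation, read 8.77 and 8.10 with IL-4 and IL-7 against 6.05 and 5.80 with IL-7. Without IL-7 it was 8.16 and 7.81 with IL-4 and 6.21 and 5.27 in medium. The changes were 2.51 (SE 0.43, adjusted p = 0.00636) and 2.25 (SE 0.43, adjusted p = 0.0135), and the second was 1.77 without the medium array that stood apart. The second call was lost without that array and also without either array of memory cells given IL-4 alone. Leaving out either IL-7 array or memory IL-4 and IL-7 replicate 1 ended the first call (highest adjusted p = 0.0860). In naive cells the arrays read 7.49 and 8.19 against 5.95 and 6.40, a change of 1.67 (adjusted p = 0.0885). Xaf1, a factor that promotes cell death, read 9.90 and 9.57 with IL-4 and IL-7, 9.91 and 9.45 with IL-4, 8.11 and 8.02 with IL-7, and 8.03 and 7.24 in medium. The groups did not overlap, and the changes were 1.67 (adjusted p = 0.0236) and 2.05 (adjusted p = 0.00596). Without the medium array that stood apart, the second was 1.65. The first call was lost without each of its 4 arrays, and the second was lost without memory IL-4 replicate 1 (adjusted p = 0.115). In naive cells Xaf1 read 8.60 and 9.37 against 7.52 and 8.06, a change of 1.2 (adjusted p = 0.157).

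The remaining 3 called effectors passed in 1 memory comparison each, with smaller changes. Ifi35, a partner of the protein Nmi, read 13.30 and 13.38 with IL-4 and IL-7 against 12.54 and 12.74 with IL-7, and 13.20 and 13.29 with IL-4 alone against 12.66 and 12.81 in medium. Only the first change, 0.70 (SE 0.15, adjusted p = 0.0277), was called, and the call was lost without each of its 4 arrays; the second was 0.51 (adjusted p = 0.121). In naive cells Ifi35 was already high with IL-7, at 13.04 and 13.33, and read 13.01 and 13.21 with IL-4. Herc6, the ligase that attaches Isg15 in the mouse, read 8.72 and 8.18 with IL-4 against 7.37 and 7.52 in medium, a change of 1.01 (adjusted p = 0.0189). With IL-7 present it read 8.13 and 7.90 against 7.65 and 7.52, a change of 0.43 (adjusted p = 0.343), and in naive cells 8.50 and 8.36 against 7.68 and 7.68, a change of 0.75 (adjusted p = 0.111). The other Herc6 probe sets were dimmer, with means of 7.43, 6.51 and 3.13. In memory cells with IL-7, without it and in naive cells, the first changed by 0.86, 1.32 and 1.18. The second changed by 0.34, 0.22 and 0.13, and the third by 0.26, 0.22 and 0.45. Adar, the RNA-editing enzyme, read 9.19 and 8.72 with IL-4 against 8.23 and 8.19 in medium. That change of 0.74 (adjusted p = 0.0444) was lost without memory IL-4 replicate 1 (adjusted p = 0.379) and without the medium array that stood apart (adjusted p = 0.179). With IL-7 in memory cells Adar read 8.66 and 8.28 against 8.33 and 8.32, which overlap, and in naive cells 8.72 and 8.46 against 8.29 and 8.10. The other Adar probe sets, both dimmer, differed from this. In memory cells with IL-7, without it and in naive cells, 1 changed by 0.93, 1.11 and 0.73, the other by -0.58, 0.58 and 0.58. The Herc6 call was lost without memory IL-4 replicate 1 (adjusted p = 0.218).

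The other 16 measured effectors were not called with IL-4 in any of the 3 comparisons, although several had changes as large as called members. Ifit3, the partner of Ifit1 whose promoter holds the same pair of ISRE letters, read 10.25 and 9.17 with IL-4 and IL-7 against 8.11 and 7.95, and 10.20 and 9.23 with IL-4 against 8.20 and 6.72. Its changes were 1.68 (adjusted p = 0.235), 2.26 (adjusted p = 0.0957) and, in naive cells, 2.17 (adjusted p = 0.156), and the medium arrays were far apart. Without the medium array that stood apart, the second change was 1.52. The 2′-5′ oligoadenylate synthetases make the messenger that activates RNase L. Oas3 changed by 0.92 (adjusted p = 0.0614) and 0.89 (adjusted p = 0.0673) in memory cells, Oas2 by 1.76 (adjusted p = 0.0752) and 1.11 (adjusted p = 0.304), and Oas1a by 1.53 (adjusted p = 0.230) and 1.34 (adjusted p = 0.308). Oasl2 changed by 2.01 (adjusted p = 0.0635), 1.44 (adjusted p = 0.208) and 2.14 (adjusted p = 0.0578). Ifi27l2a, an effector without a settled function, changed by 2.12 with IL-7 in memory cells (adjusted p = 0.0882).

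The next effectors were not called with IL-4 in the 3 comparisons as reported, and several of their changes were near 0. Rsad2 (viperin, which makes a chain-terminating nucleotide) changed by 0.11, -0.80 and 0.30, and its neighbour Cmpk2, a nucleotide kinase, by 0.070, 0.013 and 1.01 (the last with a 95% interval of 0.12 to 1.89). Mx1, a GTPase, changed by 0.55, -0.0068 and 0.24, and Oasl1 by 0.27, -0.046 and 0.18. The intervals are wide enough that a change of 1 is not shut out for Rsad2, at -1.42 to 1.64 with IL-7 in memory cells, whereas for Oasl1 the same interval was -0.36 to 0.89. Ifit2 changed by -0.28 with IL-7, and without IL-7 it changed by 1.25 with both medium arrays but by -0.45 without the one that stood apart, where Ifit2 read 6.53 against 9.94 in the other. Trim30a, an inhibitor of innate signalling, changed by -0.73 with IL-7 on its brightest probe set and by 0.10 on its other. Without memory IL-4 and IL-7 replicate 1 the first was -1.51 and was called (adjusted p = 0.0454), the only member called lower with IL-4 under any alternative.

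Whether memory and naive cells responded differently to IL-4 in the presence of IL-7 was tested directly as a difference of changes. For 0 of 35 members did it pass (0.0726% of all genes called, 0.0436% with a higher and 0.0290% with a lower change in memory cells), and 4 had an unadjusted p under 0.05. Ifi35 differed by 0.78 (adjusted p = 0.296), Zbp1 by 1.56 (95% interval 0.53 to 2.59, adjusted p = 0.340), the tethering factor Bst2 by 1.52 (adjusted p = 0.423) and Oas3 by 0.73 (adjusted p = 0.483), each toward a larger change in memory cells. Bst2 read 10.41 and 10.72 with IL-4 against 9.52 and 9.49 in memory cells, and 8.89 and 10.12 against 9.73 and 10.20 in naive cells. For the members called in all 3 comparisons the difference was 0.83 for Rtp4 (95% interval -0.085 to 1.75), 0.48 for Stat2 (-0.43 to 1.38) and -0.40 for Parp9 (-1.06 to 0.26). The smaller count of called members in naive cells therefore does not show a smaller response. Without naive IL-4 and IL-7 replicate 2, 1 member passed, Zbp1.

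IL-7 itself was compared in memory cells with and without IL-4. Without IL-4, 0 of 35 members passed and 1 had an unadjusted p under 0.05 (0.00% of all genes called): Irf7 had a change of -0.82 (adjusted p = 0.723), or -0.31 without the medium array that stood apart. With IL-4, 0 of 35 passed and 2 had an unadjusted p under 0.05 (0.00% of all genes called): Adar had a change of -0.49 and Herc6 of -0.43. The test of whether IL-7 altered the IL-4 change likewise called 0 of 35 (0.00% of all genes called). The 1 unadjusted p under 0.05 was that of Adar, at -0.60 on its brightest probe set (adjusted p = 0.838). These counts were also 0 without the medium array that stood apart. Without medium replicate 1, which leaves that array as the only medium sample, IL-7 without IL-4 gave 6 members (Irf9, Irf7, Irf1, Dtx3l, Ifit2 and Samd9l) beside 2246 genes in all (16.3%), and the interaction 3 (Irf9, Ifit2 and Samd9l) beside 1298 (9.43%).

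Sorted memory cells were compared with sorted naive cells before any culture. In memory cells 5 of 35 members, all effectors, were lower and 0 higher (1.93% of all genes called, 1.02% higher and 0.908% lower), with a median change of -0.47 against 0.029 over all genes. Ifit1 read 7.31 and 8.02 in naive cells and 6.40, 5.52, 5.70 and 5.0 in memory cells, a change of -2.00 (SE 0.37, adjusted p = 0.00956). Cmpk2 read 7.10 and 8.33 in naive cells and 6.64, 5.43, 6.35 and 6.34 in memory cells, a change of -1.52 (SE 0.36, adjusted p = 0.0423). The groups of both genes were separate, with naive replicate 2 the highest. Oas3 read 7.14 and 7.12 in naive cells and 6.27, 5.87, 5.95 and 5.91 in memory cells, which is -1.13 (SE 0.20, adjusted p = 0.00656). Oasl1, a brake on Irf7 translation, read 7.19 and 8.04 in naive cells and 6.52, 6.51, 6.49 and 6.65 in memory cells, which is -1.07 (SE 0.25, adjusted p = 0.0444). Herc6 was lower by 0.74 (SE 0.17, adjusted p = 0.0415). Over the 35 members, 14 were lower on every memory than on any naive array (14.3% of all genes) and 1, Ifi35, was higher (18.4%).

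That difference rested on few arrays. Without naive ex vivo replicate 2, 0 members were called (Ifit1 adjusted p = 0.181, Cmpk2 adjusted p = 0.381). The count was 2 without memory ex vivo replicate 2 or replicate 4, 3 without naive replicate 1 or memory replicate 3, and 8 without the medium array that stood apart. Beside it, the 7 plasmacytoid dendritic cell markers listed, all above the filter value in at least 1 array, averaged 7.39 to 7.63 on naive and 6.34 to 6.90 on memory arrays, with Siglech itself at 4.93 to 5.64 throughout. In that list only Ccr9 (11.57 and 11.53 against 7.69 to 9.22) and Tcf4 (7.56 and 7.83 against 3.44 to 4.96) were lower on every memory array. Siglech and Cox6a2 were higher on every memory array, and Klk1, Pacsin1 and Ly6d overlapped. The 6 B cell markers averaged 4.21 on both naive arrays and 4.62 to 5.05 on memory arrays. Their part in the result was not tested.

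In naive cells, 20 h of culture with IL-7 was accompanied by a fall of many members. Against ex vivo cells, 12 of 35 were lower and 1 higher (12.8% of all genes called, 5.80% lower and 7.01% higher), and the median change was -0.65 against 0.073 over all genes. The 12 comprised 10 effectors, Irf7 and the sensor Ifih1. Rsad2 read 9.64 and 10.76 ex vivo and 6.73 and 6.93 after culture, a fall of 3.36 (SE 0.71, adjusted p = 0.00984) or 10.3-fold. Cmpk2 read 7.10 and 8.33 and then 4.74 and 4.53, a fall of 3.08 (SE 0.41, adjusted p = 0.00130). These neighbouring genes had the largest falls. Oasl2 read 7.01 and 8.57 and then 5.33 and 5.97, a fall of 2.14 (SE 0.51, adjusted p = 0.0165). Mx1 read 5.11 and 6.79 and then 4.23 and 4.16, close to the filter value, a fall of 1.75 (SE 0.46, adjusted p = 0.0246).

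The other called members fell by 1.32 (Ifih1) to 1.71 (Oas2) and included Oas3, Oasl1, Isg20, Ifit1, Rtp4 and Irf7, while Ifi35 rose by 0.60 (adjusted p = 0.0203). For 22 members both cultured arrays lay below both ex vivo arrays (22.6% of all genes). Cmpk2 and Oas3 were called without each of the 4 arrays. The other calls were not: 2 members remained without naive ex vivo replicate 2, 4 without naive IL-7 replicate 1 and 3 without replicate 2. In the naive cells given IL-4 as well, Rsad2 read 6.62 and 7.64 and Mx1 4.18 and 4.69, below both ex vivo arrays, whereas Rtp4 at 9.81 and 10.59 was above them. Beside the fall, the plasmacytoid dendritic cell markers averaged 7.39 to 7.63 ex vivo and 7.25 to 7.35 with IL-7, and the 8 myeloid markers 4.54 to 4.61 and 4.37 to 4.51. The members of these lists went in both directions. Ly6d read 6.34 and 6.97 and then 4.86 and 5.72, and Cd68 read 6.49 and 6.21 and then 5.44 and 5.34. Ccr9, Tcf4, Fcgr3 and, marginally, Siglech were also lower on both cultured arrays. Cox6a2, Pacsin1, Csf1r (5.56 and 5.57 and then 5.91 and 5.86) and Adgre1 were higher on both, and the remaining markers overlapped. Their part in the result was not tested.

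**Figure D4:**
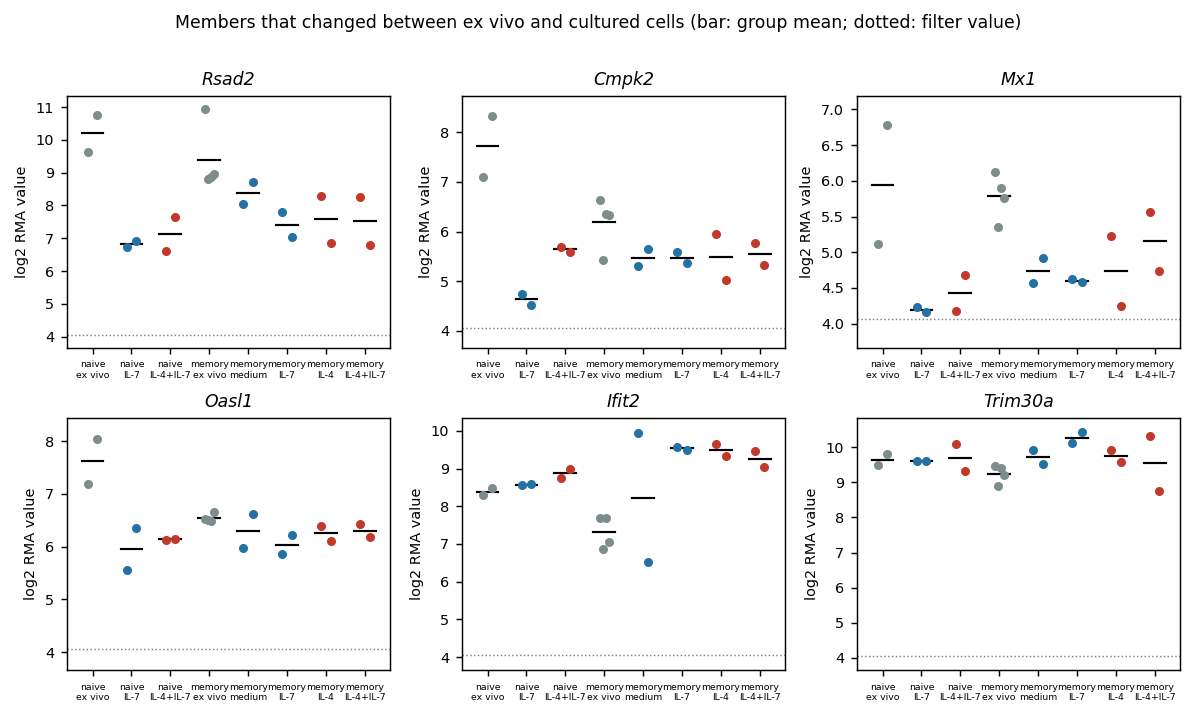
Log2 level of Rsad2, Cmpk2, Mx1, Oasl1, Ifit2 and Trim30a on each of the 18 arrays, by group, with group means as short lines. Rsad2, Cmpk2 and Mx1 stood higher in naive cells ex vivo than in the naive cultures, and Ifit2 was higher in the memory cultures than ex vivo except on the medium array at 6.53.

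Memory cells changed in both directions over the same culture. With IL-7, 4 members were higher and 5 lower than ex vivo, 25.7% of the 35 against 19.9% of all genes (11.1% higher and 8.85% lower), a share near the background. Ifit2, which also binds RNA and promotes cell death, read 7.68, 6.88, 7.68 and 7.05 ex vivo and 9.58 and 9.50 after culture, a rise of 2.22 (SE 0.60, adjusted p = 0.0209). Rsad2 read 10.94, 8.80, 8.86 and 8.95 ex vivo and 7.81 and 7.03 after culture, a fall of 1.97 (SE 0.62, adjusted p = 0.0378). Ex vivo replicate 1 was far above the other 3 for Rsad2, and without it the fall was not called (adjusted p = 0.0624). Irf7 read 9.22, 9.19, 9.01 and 9.42 and then 7.52 and 7.86, a fall of 1.52 (SE 0.31, adjusted p = 0.00721). Irf9 read 8.20, 8.51, 8.72 and 9.03 and then 7.21 and 7.25, a fall of 1.39 (SE 0.33, adjusted p = 0.0131).

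The other calls in memory cells were falls of 1.25 for Irf1 and 1.18 for Mx1 and rises of 1.03 for Trim30a, 1.01 for Samd9l and 0.66 for Trim25. The other Trim25 probe sets, both dimmer, went in opposite directions, by 0.71 and -0.63. None of the 9 calls held without memory IL-7 replicate 1 or without replicate 2, each of which left a single cultured array; over all genes those counts were 54 and 3, against 2745 with both. Without memory ex vivo replicate 4, 4 members were called, and 6 without each of the other 3 in turn. The direct test of whether culture changed memory and naive cells differently called 0 of 35 members (0.0508% of all genes called, 0.00726% higher and 0.0436% lower), with 10 at an unadjusted p under 0.05. The lowest p-values were those of Cmpk2 (2.37, adjusted p = 0.141) and Oas3 (1.17, adjusted p = 0.174), whose changes were less negative in memory cells. Leaving out the medium array that stood apart gave 1 call, for Ifit2.

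Receptors, kinases and STATs of the pathway were not called with IL-4. Of the listed receptor chains, 0 of 6 passed in any IL-4 comparison, and likewise 0 of 6 kinases and STATs tested. Of all genes, 1.81%, 1.94% and 1.26% were called in the 3 comparisons. Ifnar1 read 7.95 to 9.61 and Ifnar2 8.17 to 10.0 over all arrays. Ifnb1 (3.38 to 3.94) and Ifna4 (2.70 to 3.32) were below the filter value on every array, and Ifna2 exceeded it on 1, at 4.08. Ifna1, a type I interferon like them, read 4.37 to 5.32, above the filter value on all 18 arrays. Ifng, the type II interferon, is a hallmark of memory CD8 T cells: it read 4.28 and 3.81 in naive and 11.38 to 12.55 in memory cells ex vivo, a difference of 7.98 (adjusted p = 8.87e-07), and 9.75 to 10.38 on the memory cultures other than the medium array that stood apart, at 11.99. Ifng was not called with IL-4 in memory or naive cells.

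Of 10 genes that lead to interferon production, 1 passed in each IL-4 comparison (10.0%, against 1.81%, 1.94% and 1.26% of all genes). This was Sting1, the adaptor of cytosolic DNA sensing. It read 10.66 and 10.75 with IL-4 alone against 9.56 and 8.78 in medium in memory cells, and 11.32 and 10.58 against 9.59 and 9.64 in naive cells. The changes were 1.34 (adjusted p = 0.0372), 1.53 without IL-7 (adjusted p = 0.0175) and 1.33 in naive cells (adjusted p = 0.0481). Of 6 inhibitors, 1 passed in each memory comparison (16.7%) and 0 in naive cells. The gene was Socs1, which blocks Janus kinases and is also a known STAT6 target. In memory cells it changed by 1.60 with IL-7 (adjusted p = 0.0132) and by 1.46 without (adjusted p = 0.0229). Over the 27 further interferon-stimulated genes tested, the median changes were 0.40, 0.67 and 0.39, smaller than over the 35 members. Of these 27, 1, 4 and 2 were higher (3.70%, 14.8% and 7.41%, against 1.21%, 1.26% and 0.879% of all genes) and 0 lower. Gbp2, a guanylate-binding GTPase, was among them each time: it read 12.96 and 12.42 with IL-4 and IL-7 against 10.08 and 10.16 in memory cells and changed by 2.57 (adjusted p = 0.00186), 2.31 (adjusted p = 0.00380) and 1.64 (adjusted p = 0.0460). The others were Oas1b (1.65), Slfn1 (2.21) and Slfn8 (1.56) in memory cells without IL-7 and Slfn5 (1.71) in naive cells. In an alternative added after the data were seen, the comparison without IL-7 was repeated without the medium array that stood apart. Gbp2 at 2.41 (adjusted p = 0.0125) and Oas1b at 1.07 (adjusted p = 0.0238) were still called. The calls of Sting1 (1.14, adjusted p = 0.145), Socs1 (1.09, adjusted p = 0.177), Slfn1 (0.98, adjusted p = 0.0533) and Slfn8 (0.98, adjusted p = 0.271) were lost. On that array Slfn1 read 5.84 against 8.30 on its replicate, and Slfn8 7.74 against 8.89.

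Set against the promoters, 13 members were called with IL-4 in memory cells and 9 of these had a promoter in the table, of which 2 held an ISRE, those of Ifit1 and Stat2. Of the 22 tested members not called, 17 had a promoter and 8 held one: Bst2, Eif2ak2, Ifih1, Ifit3, Oas1a, Oas3, Rsad2 and Trim30a. The ISRE letters were thus found in members that were called and in members that were not, and Rsad2, with its match at -120, was called with IL-4 in 0 of 3 comparisons.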

How the data were processed

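RNA of 18 samples in 8 label groups was measured on Affymetrix mouse arrays. Per the labels' protocols, 50 ng of RNA was amplified linearly and labelled by in vitro transcription. The deposited values are log2 expression values made by the authors with RMA, per the submitters' processing notes, which name RMA and limma without versions. The table held 45101 probe sets: 34945 with 1 gene symbol, 932 with several and 9224 with none, besides 64 controls; only the first kind were used. The platform annotation can be old; Entrez IDs were checked against RefSeq (GRCm38.p6), which changed 0 symbols. The brightest probe set stood for a gene. A gene was tested if at least 2 arrays exceeded 4.06, the 40th percentile of the whole table, which kept 13769.

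Group means over all 18 arrays were fitted with limma 3.58.1 in R 4.3.3 (10 residual and 4.13 prior degrees of freedom), without a replicate block. Tests were two-sided, with Benjamini-Hochberg adjustment over all genes tested, and "called" means an adjusted p under 0.05. The number of arrays limits the precision. On simulated data made like the memory IL-4 comparison with IL-7, 56 of 100 genes changed by 1 (log2) and 88 of 100 changed by 2 were recovered, with 9 calls among unchanged genes.

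The members and gene lists were chosen with earlier results of these data known. Array values are printed for members called with IL-4 and for up to 4 called members with the largest change in each other comparison; other pathway genes are named where called with IL-4. Genes singled out beyond this, such as Bst2, Usp18, Ifit3 and Ifng, were chosen after their values were seen. Alternatives were no filter, a filter at the 60th percentile, the mean of all probe sets, median-centred arrays, an intensity trend in the variance, a replicate block, and leaving out each array. Motifs were searched in Python 3.11.15.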

Additional observations from a re-analysis of the deposited data

Results flagged for a closer look

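In the group of 4 ex vivo memory arrays, 3 of the 35 members had an array far from the other 3 by Dixon's test at its 95% critical value; chance flags about 1 in 20 groups. Rsad2 read 10.94 on replicate 1 and 8.80 to 8.95 on the others. Parp14 read 10.95 on replicate 2 and 11.31 to 11.36 on the others. Sp100, a nuclear body protein, read 6.58 on replicate 3 and 7.26 to 7.39 on the others.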

How the results depend on the processing

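Under the alternatives that kept all arrays, the counts of called members stayed within 1.5 times of those reported, except 4. With the replicate block the IL-4 count in naive cells was 11 and not 4, all higher, the ex vivo count was 1 (Ifit1) and not 5, and the culture count in memory cells was 5 and not 9; without the filter on low values the ex vivo count was 3. The block was replicate number within cell type. No label says that a number marks a shared population. Deviations of same-numbered arrays correlated from -0.13 to 0.51 (0.25 to 0.51 between cultured groups of a cell type other than medium), with only 2 numbers in each cultured group. Every array with IL-4 correlated best with the same-numbered array of another cultured group, and more weakly with its own replicate. Memory IL-7 replicate 2 instead correlated best with medium replicate 1, and the naive IL-7 arrays correlated best with each other. Whether a number marks a shared preparation was not tested directly, and the numbers were not taken as a pairing. With the block Usp18, Ifit3 and Oas1a, reported as not called, were called in all 3 IL-4 comparisons. Leaving out 1 array at a time gave 3 to 15 called members for IL-4 in memory cells given IL-7, 2 to 14 in those without it, 1 to 7 for IL-4 in naive cells, 0 to 8 ex vivo, 0 to 12 for culture in memory cells and 2 to 15 in naive cells. It gave 0 to 6 for IL-7 without IL-4, 0 to 1 for the memory minus naive IL-4 difference, 0 to 3 for the IL-4 by IL-7 interaction and 0 to 1 for the culture difference, and 0 throughout for IL-7 with IL-4. Fewer arrays leave fewer degrees of freedom, and an array left alone in its group is assumed to vary like the other groups; the causes of the other shifts were not tested. Centring each array on its median moved the median of all genes most in the ex vivo comparison, by -0.084 (log2). No called change of a member turned its sign under any alternative. Groups of 2 arrays, and values near 4.06 such as those of Eif2ak2 and Mx1, limit what can be detected.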
